A study of Homo sapiens with 4 samples.

Results

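The 10 long noncoding RNAs described here are transcribed from the 4 human HOX clusters, and were taken by symbol from the 58174 genes in the deposited tables. They were HOTAIR, HOTTIP, HOTAIRM1, HOXA11-AS, HOXA-AS2, HOXA-AS3, HOXB-AS1, HOXC-AS1, HOXD-AS2 and HAGLR, and each was found as 1 gene in the files. RNA-seq of total RNA came from Daoy, an established human medulloblastoma cell line, in 2 wild type and 2 EED-knockout libraries. The series describes the second genotype as mutant for EED. The sources used here do not give the lesion, the number of clones, or whether the libraries of a genotype were separate cultures, so a p-value reflects the spread among these 4 libraries alone, and that spread may be technical. The question was whether these RNAs differ between Daoy cells with and without an intact EED gene.

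HOX genes encode homeodomain transcription factors that specify position along the body axis, and stand in 4 clusters whose order along the chromosome follows the order of their expression domains. The product of EED belongs to the core of Polycomb repressive complex 2 (PRC2), which methylates histone H3 at lysine 27 and silences HOX clusters, and its binding in mammals favours stretches rich in CpG (a C followed by a G). Noncoding RNAs arise between and opposite the HOX genes, and a few of them have been described as partners of chromatin regulators: HOTAIR binds PRC2 and the LSD1-CoREST complex, and HOTTIP binds WDR5, a subunit of the MLL methyltransferases that oppose PRC2.

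RefSeq promoter windows (GRCh38.p14, 250 bases before to 50 after the start) matched 7 of the 10 members, and HOTAIR, HOTAIRM1 and HOXC-AS1 had none. Levels below are in TPM, a share of the library corrected for transcript length, or in estimated counts. The following windows are shown because HOXA-AS2 was the most abundant member with a window, HOTTIP the least abundant, and HOXD-AS2 had the largest fold change toward knockout of the members that passed the filter on low counts. Each is printed 5′ to 3′ on the strand of the RNA, in lower case with every CpG in capitals.
HOXA-AS2 (chr7:27121669-27121968, plus strand): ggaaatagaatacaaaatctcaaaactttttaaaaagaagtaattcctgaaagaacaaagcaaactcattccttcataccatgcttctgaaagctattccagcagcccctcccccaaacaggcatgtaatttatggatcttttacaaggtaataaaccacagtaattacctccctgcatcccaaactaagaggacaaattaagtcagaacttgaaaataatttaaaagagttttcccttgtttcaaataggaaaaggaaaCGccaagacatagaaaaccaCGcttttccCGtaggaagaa
HOTTIP (chr7:27200171-27200470, plus strand): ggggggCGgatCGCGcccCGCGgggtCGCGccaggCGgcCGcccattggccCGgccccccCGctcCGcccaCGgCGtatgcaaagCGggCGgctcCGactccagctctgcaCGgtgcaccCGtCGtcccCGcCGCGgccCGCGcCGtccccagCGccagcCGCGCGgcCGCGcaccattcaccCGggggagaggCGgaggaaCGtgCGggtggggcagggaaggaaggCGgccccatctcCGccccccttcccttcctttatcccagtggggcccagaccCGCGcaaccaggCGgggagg
HOXD-AS2 (chr2:176137049-176137348, minus strand): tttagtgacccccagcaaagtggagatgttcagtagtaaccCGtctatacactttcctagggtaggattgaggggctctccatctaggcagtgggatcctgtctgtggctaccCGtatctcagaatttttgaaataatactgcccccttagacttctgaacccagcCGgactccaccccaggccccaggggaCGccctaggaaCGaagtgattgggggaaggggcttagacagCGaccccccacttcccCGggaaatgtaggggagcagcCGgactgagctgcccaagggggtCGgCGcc

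The HOTTIP window held 41 CpG, a count that 6.69% of the 35116 RefSeq windows of this length reach, and 78.0% of its bases were G or C. The HOXD-AS2 window held 10 CpG (56.4% of windows hold at least as many) and lies in an intron of HOXD3. The HOXA-AS2 window held 3 CpG (81.8% of windows) with 36% G or C, and lies in an intron of HOXA3. The motif searched was CG, which reads the same on both strands. At least 1 CpG was present in 96.0% of windows, and the median window held 14. HOXA-AS3 had 2 CpG, HOXB-AS1 had 5 and HOXA11-AS had 12. HAGLR had 4 windows with 45, 31, 31 and 33 CpG. CpG content did not order the members by level: windows above the median of 14 belonged to HOTTIP, the least abundant member, and to HAGLR, one of the most abundant. The RefSeq start need not be that of the annotated gene: the HOXA-AS2 window begins at 27121669, and its gene at 27107777. The CpG counts describe the sequence, and no binding or chromatin mark was measured here.

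Of the 10 members, 9 passed the filter on low counts and none of these differed detectably between genotypes. Quasi-likelihood tests in edgeR called 0 of the 9 at an adjusted p under 0.05, where 0% of all 18349 genes tested were called, and 0 of 9 at an unadjusted p under 0.05, where 5.90% of genes were. DESeq2, limma-voom and limma-trend also called 0 of the 9 after adjustment. The smallest unadjusted p was 0.259, for HOXD-AS2, and adjusted p-values ran from 0.909 to 0.995. On the log2 scale 4 members were above 0 and 5 below, with a median of -0.03 beside 0.01 for all genes tested. The knockout pair lay wholly above the wild type pair in 2 members (HOTAIR and HOXD-AS2), where 17.8% of genes did so, and below in 1 (HOXB-AS1), where 18.0% did. In 8 of the 9, the step between the replicates of at least 1 genotype was larger than the difference between genotypes, and HOXB-AS1 was the exception.

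These intervals set what the data could show. The 95% interval of HOTAIRM1, HOXA-AS2, HOXA11-AS and HAGLR lay within a 2-fold change in either direction. The intervals of the other 5 tested members, HOTAIR, HOXA-AS3, HOXB-AS1, HOXC-AS1 and HOXD-AS2, reached past a 2-fold change on at least 1 side. An exact permutation of 2 against 2 libraries cannot give a two-sided p below 0.33, so no such test is given.

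**Figure D1:**
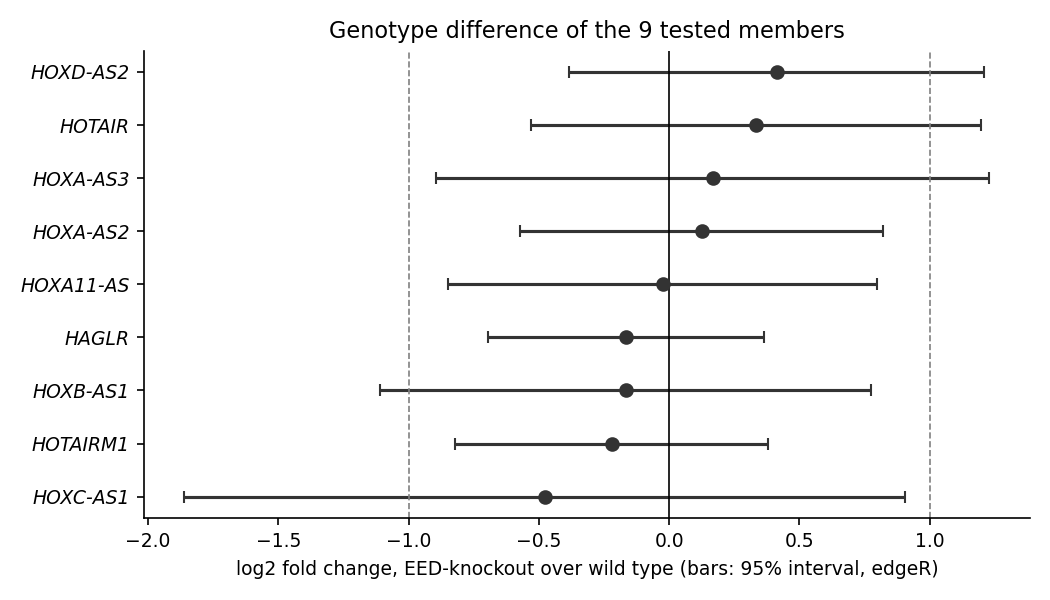
Log2 fold change of the 9 tested members, EED-knockout over wild type (x axis), with 95% intervals from edgeR as bars and dashed lines at a 2-fold change. Each interval includes 0, and HOXC-AS1, the member with the fewest counts, has the widest, from -1.86 to 0.91.

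Libraries held 17836112 to 19106382 estimated counts, and a floor of 3 counts came to 0.157 to 0.168 CPM, the count corrected for library size. Mitochondrial genes took 2.68% to 2.97% of counts, with overlapping genotypes. Across genes, log2 CPM of EED-knockout 1 correlated less with EED-knockout 2 (r = 0.953) than wild type 2 did with EED-knockout 2 (r = 0.971), while the wild type pair reached r = 0.975. EED itself had 626 and 500 counts in the wild type pair and 340 and 490 in EED-knockout 1 and 2, with a log2 fold change of -0.49 ± 0.27 (SE, edgeR adjusted p = 0.877). A lesion need not lower the messenger, so this level does not check the label. Of 14 markers of the granule neuron lineage and hedgehog-type medulloblastoma, 11 had a mean of at least 1 TPM. The progenitor factor ATOH1 was at 0 counts in all 4 libraries. NEUROD1, with 0 to 5 counts, and BARHL1, with 1 to 8, were below 1 TPM in each library. Of the 11 tested, knockout lay above wild type in 4 and below in 1, where 17.8% and 18.0% of all genes tested did so. Their log2 fold changes had a median of 0.32, beside 0.01 for all genes tested. GLI1 had 11 and 5 counts in the wild type pair and 28 and 23 in the knockout pair. It was the 1 marker of these 11 with an unadjusted p under 0.05 (edgeR adjusted p = 0.823), where 5.90% of all genes tested had one. Whether this has a part in the results was not tested. Markers of leukocytes summed to 0.558 and 1.29 TPM in the wild type pair and 1.33 and 1.37 in the knockout pair, with CD3E at 0. Those of skeletal muscle summed to 5.51 and 1.01 against 0.502 and 0.449 TPM, and DES, with 113 counts in wild type 1 and 8 or fewer in the others, carried that difference. Both sums were apart between genotypes, and their part in the results was not tested. Endothelial markers summed to 1.17, 2.95, 32.7 and 0.528 TPM in wild type 1, wild type 2, EED-knockout 1 and EED-knockout 2, and the high value came from KDR with 1782 counts against 34, 16 and 7 in wild type 1, wild type 2 and EED-knockout 2. Fibroblast markers (397 to 750 TPM, mainly COL1A1) and epithelial markers (446 to 604 TPM, mainly KRT18) were high and their sums overlapped between genotypes. COL1A1 had 34953 and 51355 counts in the wild type pair and 55269 and 56630 in the knockout pair. The other 4 fibroblast markers had log2 fold changes below 0 and had their lowest counts in EED-knockout 2. In TPM, not all of these 4 were lowest there. PDGFRB, for example, had 460 and 693 counts in the wild type pair and 615 and 172 in the knockout pair. The part of the fibroblast markers in the results was not tested. In bulk RNA, fewer cells with an RNA and less of it per cell cannot be told apart.

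The members spanned a wide range of levels. By mean TPM over the 4 libraries the order was HOTAIRM1 (55.4 ± 9.20, SD, n = 4), HOXA-AS2 (41.7 ± 9.44), HAGLR (22.9 ± 2.03), HOXD-AS2 (12.7 ± 3.21), HOXC-AS1 (12.5 ± 3.67), HOXB-AS1 (8.01 ± 0.287), HOXA11-AS (6.39 ± 0.569), HOTAIR (5.41 ± 1.15), HOXA-AS3 (1.88 ± 0.663) and HOTTIP (0.282 ± 0.178). Ranges of neighbours in this order overlapped for HOTAIRM1 and HOXA-AS2, for HOXD-AS2 and HOXC-AS1, and for HOXA11-AS and HOTAIR. HOTAIRM1 exceeded HOXA-AS2 in each of the 4 libraries, but HOXD-AS2 exceeded HOXC-AS1 in only 2. The lowest library of the higher member stood above the highest library of the lower one at the other 6 steps. These levels are per length, and short transcripts raise them: HOXC-AS1 came ahead of HOXB-AS1 on 13 to 29 counts, because most of its TPM was assigned to a transcript of 290 bases in 3 of the 4 libraries.

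**Figure D2:**
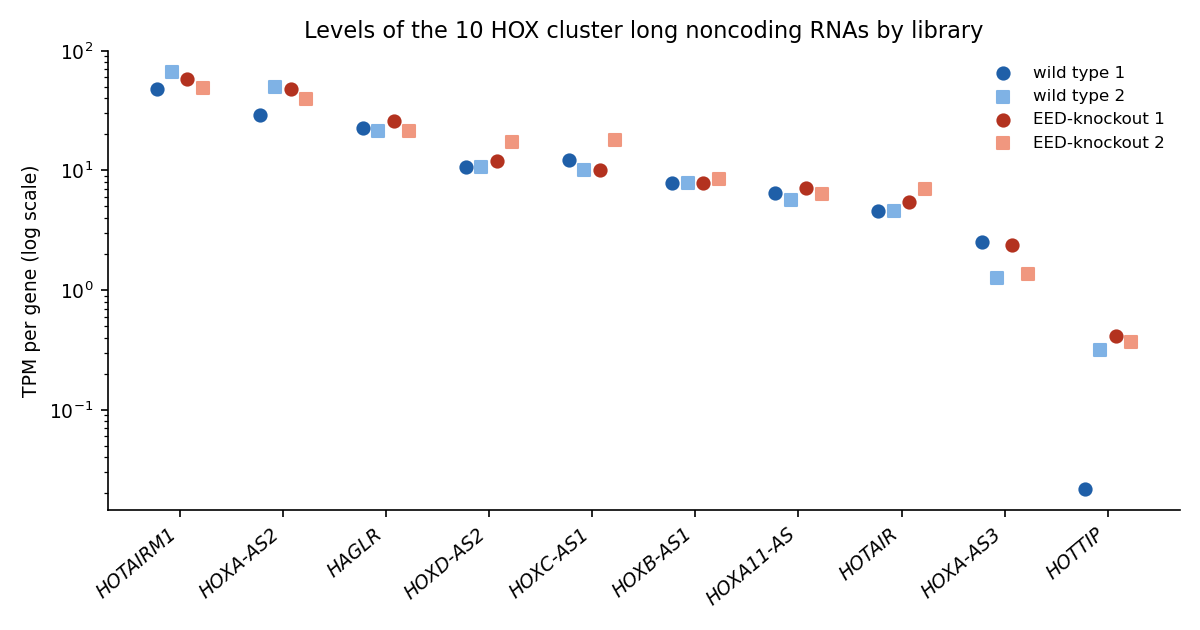
TPM per gene (y axis, log scale) of the 10 members in each library, ordered by mean level, with wild type in blue and EED-knockout in red. Levels run from HOTAIRM1 (47.5 to 67.0 TPM) down to HOTTIP (0.0217 to 0.417 TPM), whose points are spread the most on this scale.

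HOTAIR and HOTTIP are the members best known for contacts with chromatin enzymes. HOTAIR (ENSG00000228630; chromosome 12, 53962308 to 53974956, minus strand, GRCh38) lies between HOXC12 and HOXC11 and reaches into the span of HOXC11. It had 60 and 78 counts in the wild type pair (replicates 1 and 2, in this order here and below) and 90 and 91 in the knockout pair. Both knockout libraries were above both wild type libraries, and wild type 1 was the lowest. The same held in TPM, at 4.61 and 4.57 in the wild type pair and 5.45 and 7.02 in the knockout pair. The log2 fold change of 0.33 ± 0.36 (SE) had a 95% interval of -0.53 to 1.20 and an edgeR adjusted p of 0.937. It fell to 0.16 without wild type 1 and was 0.54 without wild type 2. Both coding neighbours did otherwise: HOXC11 had 75, 70, 64 and 61 counts in the same order, with knockout below wild type, and HOXC12 had 388, 445, 388 and 487, with overlapping genotypes. HOTAIR stood at 2.62 times the mean TPM of HOXC11 and 0.581 times that of HOXC12.

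HOTTIP (ENSG00000243766; chromosome 7, 27198575 to 27207259, plus strand) starts within the span of HOXA13, on the other strand, at the far end of the HOXA cluster. It had 1 and 4 counts in the wild type pair and 6 and 8 in the knockout pair, the only member removed by the filter on low counts. Wild type 1 lay below the floor of 3 counts, and the other libraries lay above it with 8 counts or fewer. Summed, 14 knockout against 5 wild type counts gave a ratio of 2.78 per total count, with an exact (Clopper-Pearson) 95% interval of 0.947 to 9.87 that covers counting error only. Without the filter edgeR gave a log2 fold change of 1.38 (adjusted p = 0.842). HOXA13 had 53 and 41 counts in the wild type pair and 82 and 73 in the knockout pair. Both knockout libraries of HOXA13 were above both wild type libraries, but its edgeR adjusted p was 0.881. In TPM, HOTTIP was at 0.270 times HOXA13.

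Genes of the enzymes these RNAs contact were well expressed in both genotypes. SUZ12 and EZH2, the other PRC2 core subunits tested, stood at 40.4 to 50.2 and 70.9 to 85.3 TPM. KDM1A (LSD1) stood at 95.6 to 112 TPM, and its partners RCOR1 and REST at 16.5 to 18.5 and 5.41 to 7.26 TPM. WDR5 stood at 54.9 to 66.7 TPM and the methyltransferase KMT2A (MLL) at 16 to 23.7 TPM. Of these 7 and EED, edgeR called 0 of 8, with 0 at an unadjusted p under 0.05, and their median log2 fold change was 0.00. In CPM, knockout lay above wild type in 2 of the 8 and below in 1, where 17.8% and 18.0% of all genes tested did so.

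The early end of the HOXA cluster gave the most abundant members. HOTAIRM1 (ENSG00000233429; chromosome 7, 27095647 to 27100265, plus strand) lies next to HOXA2 and is known as an RNA induced with retinoic acid in myeloid cells. It had 308 and 406 counts in the wild type pair and 342 and 296 in the knockout pair. Wild type 2 was the highest and the genotypes overlapped. The log2 fold change was -0.22 ± 0.25 (95% interval -0.82 to 0.38, edgeR adjusted p = 0.940), and it was -0.00 without wild type 2 and -0.41 without wild type 1. In mean TPM, HOTAIRM1 was 3.14 times as abundant as HOXA2, and above it in each library. HOXA2 had 309, 415, 417 and 433 with overlap.

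HOXA-AS2 (ENSG00000253552; chromosome 7, 27107777 to 27134302, plus strand) runs opposite HOXA3 and HOXA4, and 11.9% of its annotated exon bases overlap theirs. It had 298 and 408 counts in the wild type pair and 483 and 319 in the knockout pair. EED-knockout 1 was the highest and wild type 1 the lowest, with the other two between them, so the genotypes overlapped. The log2 fold change was 0.12 ± 0.29 (95% interval -0.57 to 0.82, edgeR adjusted p = 0.975). The sign turned without wild type 1 (-0.08) and without EED-knockout 1 (-0.19), and the value was 0.37 without wild type 2 and 0.38 without EED-knockout 2. HOXA3 had 730 and 890 counts in the wild type pair and 999 and 1027 in the knockout pair. In HOXA3 knockout lay above wild type, which was not so in HOXA-AS2, and HOXA3 was the more abundant in TPM in each library.

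HOXA-AS3 (ENSG00000254369; chromosome 7, 27129977 to 27155928, plus strand) lies opposite HOXA5, HOXA6 and HOXA7. It had 41.3 and 30.1 counts in the wild type pair and 44.2 and 39.2 in the knockout pair, and EED-knockout 2 fell below wild type 1. Its log2 fold change was 0.17 ± 0.45 (95% interval -0.89 to 1.23, edgeR adjusted p = 0.980). The sign turned without wild type 2 (-0.04), and the value was 0.41 without wild type 1. The neighbours were far more abundant, with mean TPM of 22.8 for HOXA5, 4.52 for HOXA6 and 43.9 for HOXA7 against 1.88 for HOXA-AS3. Exons of other genes, mainly HOXA7, cover 39.3% of the exon bases of HOXA-AS3. The sources used here do not say whether the kit keeps strand, and without strand, fragments from the shared stretches cannot be told apart.

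HOXA11-AS (ENSG00000240990; chromosome 7, 27184507 to 27189298, plus strand) is the antisense partner of HOXA11, a factor of limb and uterus development. It had 98.7 and 81.4 counts in the wild type pair and 98.4 and 85.9 in the knockout pair. Each knockout library fell between the 2 wild type libraries. Its log2 fold change was -0.03 ± 0.35 (95% interval -0.85 to 0.80, edgeR adjusted p = 0.995), and it was 0.13 on log2(TPM + 1) with limma-trend. HOXA11 had 269 and 265 counts in the wild type pair and 336 and 382 in the knockout pair, with knockout above wild type (edgeR adjusted p = 0.881). Exons of other genes cover 59.3% of the exon bases of HOXA11-AS, the largest share of any member.

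The files also list short segments of 4 members (HOTAIR, HOTAIRM1, HOTTIP and HOXA11-AS) as separate genes, 17 in all, and 15 of them were at 0 counts in all 4 libraries. The exceptions belong to HOXA11-AS. HOXA11-AS1_5 had 12.8 and 19.5 counts in the wild type pair and 5.26 and 13.3 in the knockout pair, and HOXA11-AS1_4 had 1 and 7 against 1 and 6.89. These counts stand outside the gene sum of HOXA11-AS above. They were looked at after the values were seen.

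HOXB-AS1 (ENSG00000230148; chromosome 17, 48543551 to 48551250, plus strand), opposite HOXB2 and HOXB3, was the steadiest member. It had 53.7 and 54.2 counts in the wild type pair and 49.3 and 51.3 in the knockout pair, so knockout lay below wild type. In TPM the order was the opposite, at 7.85 and 7.85 in the wild type pair and 7.89 and 8.44 in the knockout pair. In log2 terms the fold change was -0.17 ± 0.40 (95% interval -1.11 to 0.77, edgeR adjusted p = 0.975), and 0.05 on log2(TPM + 1) with limma-trend. HOXB2 had 523, 551, 570 and 593 counts and overlapped between genotypes, while HOXB3 had 411, 420, 413 and 334, with knockout below wild type in CPM. In HOXB3 the TPM pointed the other way too, at 15 and 18.1 in the wild type pair and 25 and 19.5 in the knockout pair.

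HOXC-AS1 (ENSG00000250451; chromosome 12, 53999022 to 54000010, minus strand) lies within the span of HOXC9 on the other strand and overlaps no annotated exon of another gene. It had 18 and 29 counts in the wild type pair and 13 and 22 in the knockout pair. Wild type 2 was the highest and EED-knockout 1 the lowest, and the genotypes overlapped. Knockout over wild type, the log2 fold change was -0.48 ± 0.58 (95% interval -1.86 to 0.91, edgeR adjusted p = 0.943). Leaving out 1 library gave values from -0.92 (without EED-knockout 2) to -0.09 (without wild type 2), with -0.78 without wild type 1 and -0.13 without EED-knockout 1. On log2(TPM + 1) the value was 0.25, with TPM of 12.1 and 10.1 in the wild type pair and 10 and 17.8 in the knockout pair. HOXC9 had 227, 197, 245 and 205 counts, with overlapping genotypes.

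HOXD-AS2 and HAGLR come from the HOXD cluster. HOXD-AS2 (ENSG00000237380; chromosome 2, 176121611 to 176137098, minus strand) runs opposite HOXD8, while exons of HOXD3 cover 26.5% of its exon bases. HOXD-AS2 had 119 and 111 counts in the wild type pair and 128 and 190 in the knockout pair. Knockout lay above wild type, but EED-knockout 1 was close to wild type and the excess came from EED-knockout 2. The log2 fold change was 0.41 ± 0.34 (95% interval -0.38 to 1.21, edgeR adjusted p = 0.909), the largest toward knockout among the tested members. It was 0.09 without EED-knockout 2 and 0.68 without EED-knockout 1. HOXD8 had 185 and 188 counts in the wild type pair and 272 and 294 in the knockout pair, with both knockout libraries above both wild type ones (edgeR adjusted p = 0.851). Mean TPM was 12.7 for HOXD-AS2 and 12.6 for HOXD8, and HOXD-AS2 was the higher in 3 of the 4 libraries.

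HAGLR (ENSG00000224189; chromosome 2, 176164051 to 176188958, minus strand), also known as HOXD-AS1, runs opposite HOXD1 and HOXD3. It had the most counts of any member, 865 and 692 in the wild type pair and 809 and 635 in the knockout pair. Wild type 1 was the highest and EED-knockout 2 the lowest, and the genotypes overlapped. Its log2 fold change was -0.17 ± 0.22 (95% interval -0.70 to 0.36, edgeR adjusted p = 0.95), the narrowest interval of the tested members. It was 0.0022 without wild type 1, -0.01 without EED-knockout 2, -0.32 without wild type 2 and -0.33 without EED-knockout 1. On log2(TPM + 1) it was 0.09. HAGLR exceeded its coding neighbours in each library, at 15.3 times the mean TPM of HOXD1 and 4.40 times that of HOXD3. HOXD1 had 45.3, 26.8, 39.0 and 38.8 counts and HOXD3 had 130, 69.2, 156 and 149, and only HOXD3 had knockout above wild type.

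**Figure D3:**
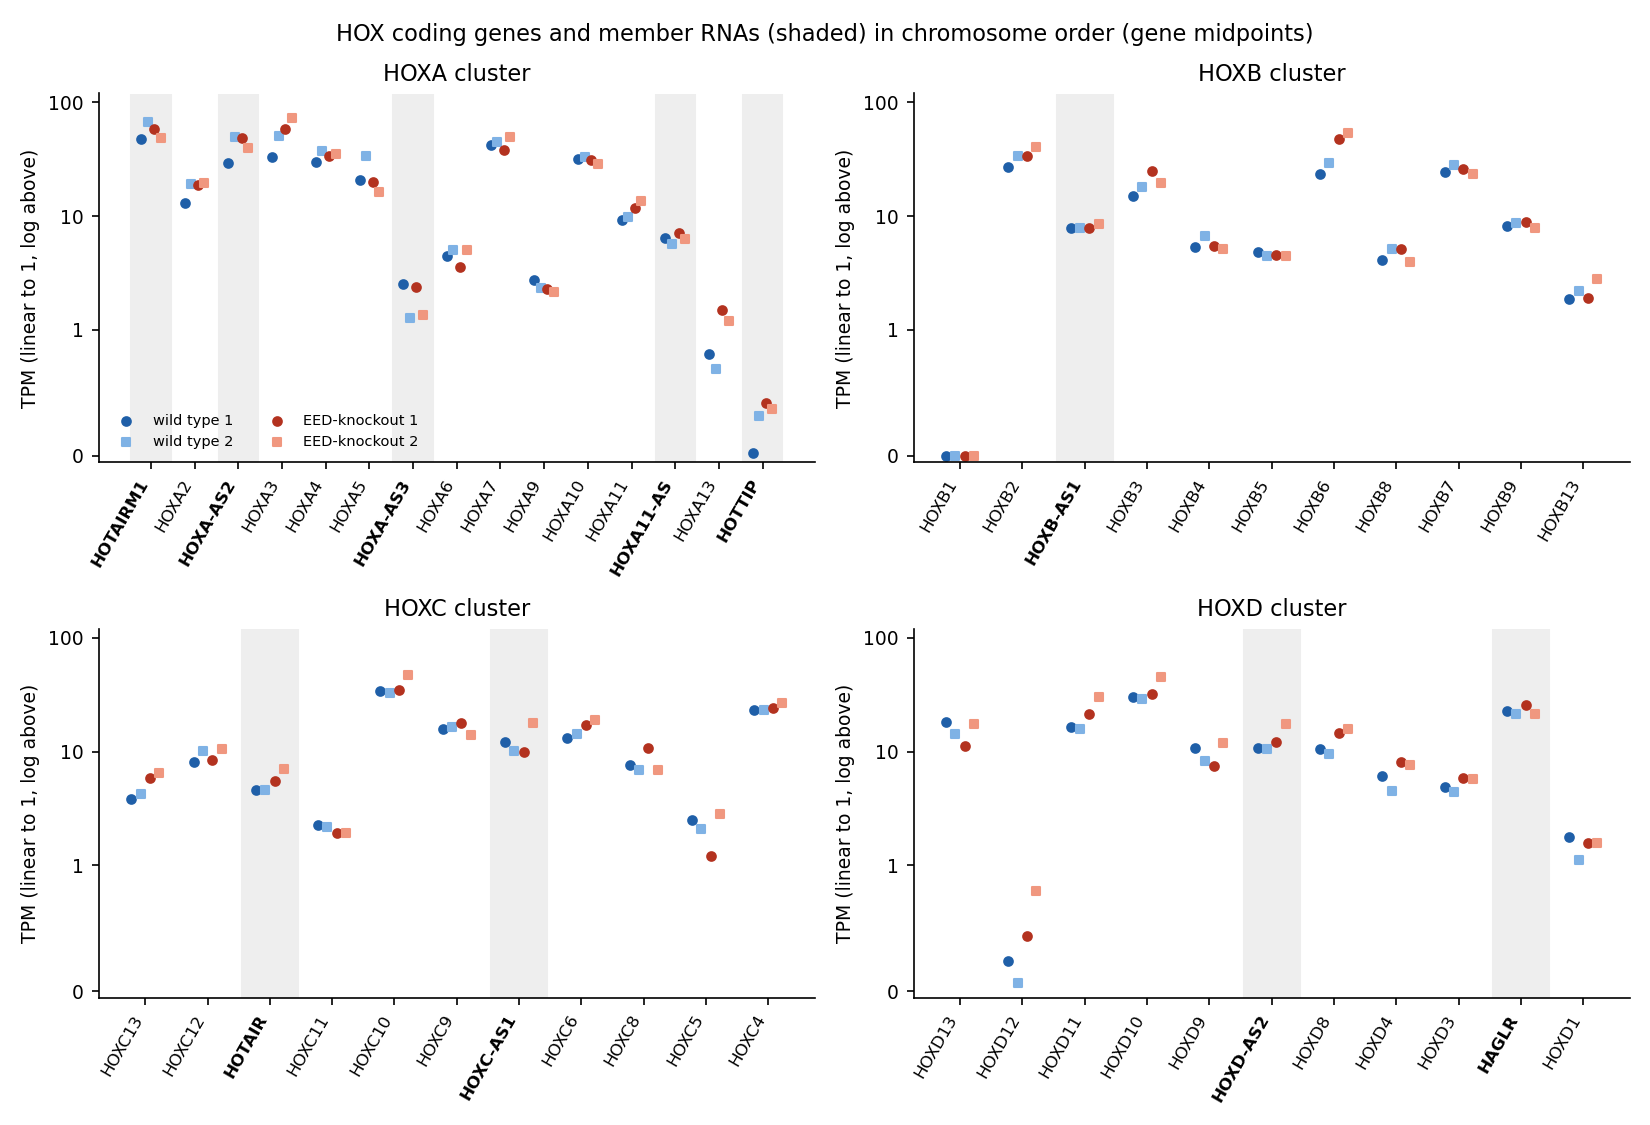
TPM (y axis, linear to 1 and logarithmic above) of HOX coding genes named in the panels and of the members (shaded, bold) in each library, in the order of gene midpoints along the chromosome. HOTAIRM1 stands above HOXA2 and HAGLR above HOXD1 and HOXD3, while HOTTIP and HOXA13 mark a low end of the HOXA cluster.

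The clusters as a whole were active in both genotypes. All but 2 of the 39 HOX coding genes had a mean of at least 1 TPM: HOXB1 had 0 counts in all 4 libraries, and HOXD12 had 1 to 11. Of the 16 coding genes next to a member, knockout lay above wild type in 6 and below in 2 (17.8% and 18.0% of all genes tested did so), with 0 at an unadjusted p under 0.05 and a smallest edgeR adjusted p of 0.851. Against the same background, 11 of the 37 HOX coding genes tested had knockout above wild type and 5 below, with a median log2 fold change of 0.03. By cluster the median was -0.07 for HOXA, -0.08 for HOXB, 0.03 for HOXC and 0.41 for HOXD. Genes that flank the clusters were tested for 16 of 20 in the files, with 1 above, 1 below and a median of -0.03. Of 20 other symbols listed as HOX cluster noncoding genes, 16 were in the files and 7 were tested. Knockout lay above in 1 (HOXB-AS3) and below in 1 (HOXC13-AS), with a median of 0.15. HOXD-AS1, among the listed symbols not found, is another name of the member HAGLR. HOXB-AS3 had 51 and 68 counts in the wild type pair and 94 and 92 in the knockout pair. The precursors MIR10A, MIR10B, MIR196A1, MIR196B and MIR615 were at 0 counts in all libraries. EdgeR called 0 genes of each of these lists, with 0 at an unadjusted p under 0.05, where 5.90% of all genes tested were.

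The pattern of each tested member over the 4 libraries was set beside those of the 37 HOX coding genes, by the root mean square difference of log2 CPM after each gene's own mean was removed. HOXD-AS2 was closest to HOXD10, at 0.06, where its own spread around its mean was 0.28 and its median distance to the 37 genes was 0.29. Both were highest in EED-knockout 2. HOTAIR was closest to HOXA3 (0.04, median 0.28), and both were lowest in wild type 1. HOXA11-AS (0.04) and HOXA-AS3 (0.11) were closest to HOXC9, HOXB-AS1 to HOXA10 (0.05), HOTAIRM1 to HOXB4 (0.07) and HAGLR to HOXA9 (0.09). HOXA-AS2 was closest to HOXB8 (0.14) and HOXC-AS1 to HOXA6 (0.25). Only for HOXD-AS2 was the closest gene in the same cluster, and with 4 libraries and 37 candidates these distances are a description.

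Transcripts within the members were uneven. The files list 57 transcripts of the 10 members, of which 15 were at 0 counts in all 4 libraries and 22 had a mean of at least 10 counts. Of those 22, knockout lay above wild type in CPM in 4, below in 3, and 15 overlapped, with no test. Of all 54782 transcripts with a mean of at least 10 counts, 17.6% lay above and 17.6% below, so the members' transcripts stood near the background. HAGLR-001, a transcript of 4235 bases, held 83.9% to 88.9% of the counts of HAGLR. It had 769 and 595 counts in the wild type pair and 689 and 533 in the knockout pair, whereas HAGLR-003 had 74.2 and 80.6 against 96.7 and 89.6. The long form thus overlapped between genotypes, and the shorter form lay above wild type in both knockout libraries.

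HOTAIRM1 was split among 3 main forms. HOTAIRM1-006 had 129 and 111 counts in the wild type pair and 97.9 and 65.3 in the knockout pair, so knockout lay below wild type, although the gene sum overlapped. HOTAIRM1-003 had 114, 146, 123 and 121 and HOTAIRM1-001 had 60.3, 128, 114 and 74.9, and both overlapped. HOTAIR-001, a transcript of 2421 bases, carried 73.8% to 86.5% of HOTAIR counts, with 44.9 and 57.5 in the wild type pair and 77.9 and 71.8 in the knockout pair. HOTAIR-002 had 16.8 counts in wild type 2 and 0 in the others. In HOXA-AS2, the form of 2455 bases (HOXA-AS2-006) held 48.5% to 53.5% of counts and overlapped, at 159, 217, 257 and 155, while HOXA-AS2-009 had 24.4 and 30.3 in the wild type pair and 40 and 36.2 in the knockout pair. In HOXB-AS1 the order of the genotypes differed between forms, since HOXB-AS1-001 had 37.2, 43.0, 31 and 29 counts and HOXB-AS1-004 had 6.89, 8.17, 11.3 and 12.3. The mean of HOXB-AS1-004 was below 10 counts, so this form is not among the 22 above.

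**Figure D4:**
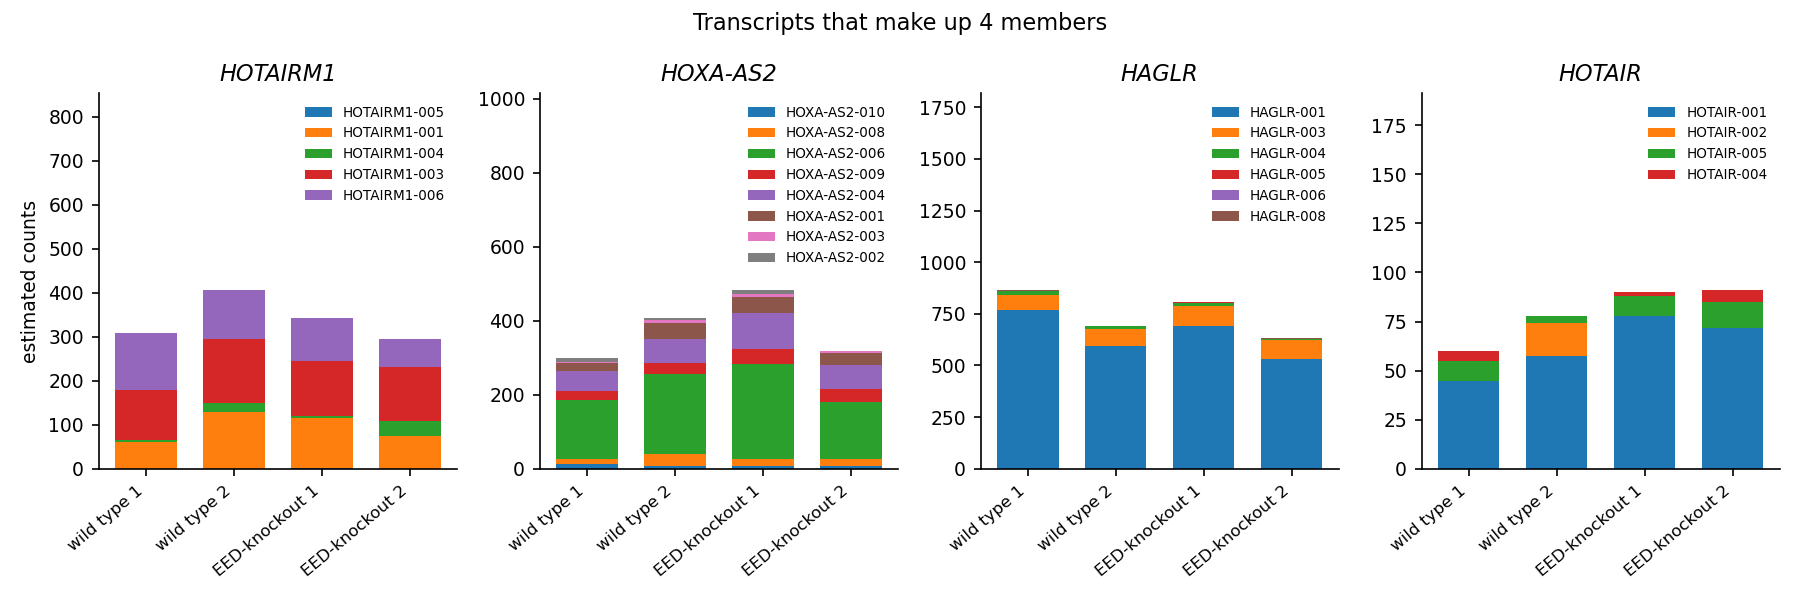
Estimated counts (y axis) assigned to each transcript with any count, stacked per library, for HOTAIRM1, HOXA-AS2, HAGLR and HOTAIR. HAGLR and HOTAIR are each carried by 1 long form, and HOTAIRM1 and HOXA-AS2 are split among several.

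Kallisto divides fragments that match several transcripts by a model, and the gene sums show where it had to. For HOTAIR, HOTTIP, HOTAIRM1 and HOXC-AS1 the gene sum was a whole number in all 4 libraries, within 0.01, as arises when no fragment is divided with another gene. The other 6 members had a fractional sum in at least 1 library. Annotated exons (GENCODE 29) of these 6 overlap other genes over 11.9% (HOXA-AS2) to 59.3% (HOXA11-AS) of their bases. Among the 4 with whole sums the overlap was 0% for HOXC-AS1, 6.38% for HOTAIR, 20.1% for HOTTIP and 44.9% for HOTAIRM1. These shares count a member's own separately listed segments as other genes, and so counted the ranges of both sets overlapped. Same-strand segments covered 31.9% of the bases of HOXA11-AS, 18.4% of HOTTIP and 43.2% of HOTAIRM1. The overlap of HOTAIR was with segments alone.

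**Figure D5:**
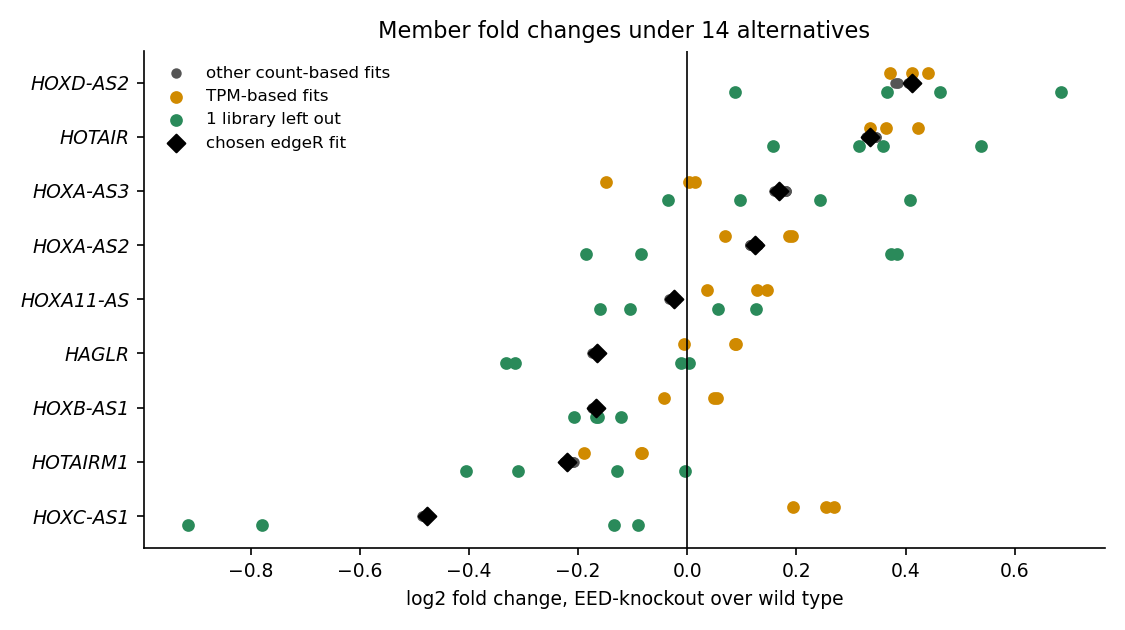
Log2 fold change of the 9 tested members (x axis) in the chosen edgeR fit (black diamonds), with TPM-based fits in orange, fits without 1 library in green and other count-based fits in grey. HOTAIR and HOXD-AS2 stay above 0 and HOTAIRM1 stays below 0 in each fit drawn, and the other 6 have values on both sides, which for HOXB-AS1 and HOXC-AS1 come from fits that use TPM.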

How the data were processed

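RNA-seq of 4 Daoy libraries was analysed, with genotypes and replicate numbers from the labels. The authors ran kallisto 0.43.1 with build hg38, per the submitters' processing notes, and deposited its estimated count and its TPM (a length-corrected share) for each transcript. The sources used here give neither the GENCODE release nor the settings of kallisto. The deposited transcript lengths and effective lengths (other values, in bases) were used only for length-scaled counts. Counts of the 199324 transcripts were summed per gene and rounded.

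Genotypes were compared in edgeR 4.0.16 by its quasi-likelihood test (R 4.3.3; TMM factors; filterByExpr with minimum count 10 and minimum total 15; no covariate) was fitted to all genes, leaving 18349, with Benjamini-Hochberg adjustment and two-sided tests. Intervals are 95% intervals of that fit. Non-overlap was read on log2 CPM (prior count 2) for genes and on CPM for transcripts, both with TMM factors. Alternatives used RLE factors, other filters, the replicate number as a block, DESeq2 1.42.0, limma 3.58.1 (voom; trend on log2(TPM + 1) and log2(TPM + 0.1)), length-scaled TPM counts and leaving out each library with the same genes kept. Positions and exon overlaps are from GENCODE 29 (GRCh38), and promoter sequences from RefSeq.

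The members, the neighbouring genes and the gene lists were chosen with earlier results of these data known. Genes named were the 10 members, the HOX coding genes beside them, the closest HOX coding gene by pattern, EED and partner genes. Others (segments of HOXA11-AS, HOXB1, HOXD12, HOXB-AS3, HOXC13-AS, microRNA precursors, ATOH1, NEUROD1, BARHL1, GLI1, KDR, PDGFRB, DES, CD3E, COL1A1, KRT18) were named after their values were seen. The values of 1 neighbouring gene are not reported here, though it is counted among the genes tested.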

Additional observations from a re-analysis of the deposited data

How the results depend on the processing

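No member passed adjustment under any of the 14 alternatives (smallest adjusted p 0.555), and 109 of the 126 member values kept their direction. HOTAIR, HOTAIRM1 and HOXD-AS2 kept theirs throughout. On log2(TPM + 1) and log2(TPM + 0.1) with limma-trend, log2 fold changes turned to 0.13 and 0.15 for HOXA11-AS, 0.049 and 0.054 for HOXB-AS1, 0.25 and 0.27 for HOXC-AS1 and 0.087 and 0.090 for HAGLR. With length-scaled TPM counts they turned to 0.037 for HOXA11-AS, -0.15 for HOXA-AS3 and 0.19 for HOXC-AS1. Leaving out each library gave -0.16 to 0.13 for HOXA11-AS, -0.19 to 0.38 for HOXA-AS2, -0.036 to 0.41 for HOXA-AS3 and -0.33 to 0.0022 for HAGLR. The median of the 9 was 0.13 and 0.15 in the limma-trend fits and -0.12 to 0.056 with a library left out. Its lowest value came without EED-knockout 1. Members with knockout below wild type numbered 0 in the 3 TPM-based settings. The cause of these changes was not tested.

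EdgeR called 0 genes, DESeq2 called 35 higher and 44 lower, and leaving out a library gave 0 to 49 higher and 0 to 54 lower, none of them members. Only leaving out wild type 1 kept the count at 0. The other three gave 1 and 3 without wild type 2, 38 and 54 without EED-knockout 1, and 49 and 46 without EED-knockout 2, with the spread of the lone library taken from the other genotype. As a replicate block the replicate number changed no call (0 genes; HOTAIR 0.35, HOXD-AS2 0.38). Deviations of same-numbered libraries correlated at -0.14 across genes, and a crossed pairing, added after seeing the data, also gave 0 calls. Among the tested members, the 95% interval was widest for HOXC-AS1, which had 13 to 29 counts, and narrowest for HAGLR, which had 635 to 865.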
